A study of Mus musculus with 10 samples.

Results

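The genes described here make sterols and fatty acids, and they were followed in sorted luminal cells of the mouse prostate epithelium. The set lists 37 genes with a role in the pathways, chosen with earlier results of these data known. It covers the regulators of the pathway, the cholesterol steps, fatty acid synthesis, the elongases and the desaturases. Of these, 34 had a row of the array table that names that gene alone, out of 30735 genes tested. The rows of Srebf1, Tm7sf2 and Scd2 also carry another gene's name, so these genes are not analysed here. Scd1 and Fads2 were set apart because earlier results of these data showed them moving in opposite directions, so their differences are given as a description, with no p-value. Both still enter the counts of called members, which for the main fit are also given over the other 32.

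The 3 groups of male mice compared all carried a Hoxb13-rtTA transgene with TetO-H2BGFP, so that doxycycline turns on a nuclear green fluorescent protein in Hoxb13-expressing luminal cells. Regenerated mice (n = 4) were castrated at 12 weeks of age, regressed for 6 weeks and then carried subcutaneous testosterone implants for 4 weeks. Castrated mice (n = 3) had the same surgery and 6 weeks of regression without testosterone, and intact mice (n = 3) were untreated. All drank doxycycline at 2 mg/ml for 1 week before death. Cells were sorted as GFP positive, CD24 positive and CD49f intermediate, and as negative for CD45, CD11b and a macrophage marker. The sort therefore rests on a reporter driven by Hoxb13, whose own RNA averaged 9.47 log2 in regenerated, 7.74 in castrated and 10.39 in intact arrays. Hoxb13 was called lower in castrated than in intact arrays and higher in regenerated than in castrated arrays. Regenerated mice were also studied later after surgery, and so at a greater age, than castrated mice. Testosterone, time since surgery and age therefore cannot be told apart. No age is given here for intact mice. The sources used here do not say whether an array holds 1 mouse or a pool, and p-values measure only the spread between these arrays.

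Cells make cholesterol from acetyl-CoA through mevalonate and squalene, and make fatty acids from acetyl-CoA through malonyl-CoA. Both routes are driven by the sterol regulatory element binding proteins, SREBPs, transcription factors held in the endoplasmic reticulum. When sterols are low the escort protein Scap carries them to the Golgi, where proteases release the active factor, and Insig proteins hold Scap back when sterols are plentiful. Elongases lengthen fatty acids, and desaturases put double bonds into them. In prostate epithelium, androgens are known to raise lipid synthesis through this route.

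Of the 34 measured members, 28 have a promoter entry in RefSeq (GRCm38.p6), a window of 250 bases before and 50 after a gene's start. Parts of 5 of these windows are shown, for the gene with the largest change, for 3 others called between groups, and for a classical SREBP target that was not called. Each is read 5′ to 3′ on the gene's own strand, and capitals mark the motif named after the gene. Positions are counted from the start, with the last base before it as -1.
Fads2, chr19:10101504-10101623, minus strand, none of the motifs found: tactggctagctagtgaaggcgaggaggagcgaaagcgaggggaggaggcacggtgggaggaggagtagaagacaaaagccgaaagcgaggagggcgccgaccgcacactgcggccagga
Scap, chr9:110333113-110333172, plus strand, androgen receptor hexamer: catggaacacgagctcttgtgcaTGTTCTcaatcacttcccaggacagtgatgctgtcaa
Me1, chr9:86695910-86695954, minus strand, antioxidant response element: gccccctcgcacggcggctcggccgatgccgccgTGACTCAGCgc
Mvk, chr5:114444089-114444263, plus strand, CCAAT box: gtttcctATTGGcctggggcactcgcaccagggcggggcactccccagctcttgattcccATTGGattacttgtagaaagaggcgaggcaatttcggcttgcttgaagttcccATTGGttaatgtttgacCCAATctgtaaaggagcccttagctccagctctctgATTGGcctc
Hmgcs1, chr13:119690166-119690226, plus strand, CCAAT box, androgen receptor hexamer and sterol regulatory element: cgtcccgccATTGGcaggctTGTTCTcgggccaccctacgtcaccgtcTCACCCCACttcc

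These windows were searched on both strands for 5 motifs. The sterol regulatory element TCACNCCAC was found in 1 of 28 members, Hmgcs1, and in 1.44% of all 27025 genes with an entry. The CCAAT box CCAAT, bound by NF-Y, which acts with SREBPs, was found in 23 of 28 members and in 41.1% of all genes. The E-box CACGTG was found in 6 of 28 and 8.09%, the androgen receptor hexamer AGAACA in 6 of 28 and 21.3%, and the antioxidant response element TGACNNNGC in 6 of 28 and 14.0%. No match of one motif overlapped a match of another within the members' windows. In the Mvk window, 4 CCAAT boxes on the opposite strand stood exactly 53 bases apart from one to the next. These matches are letters in a window, and binding was not measured here.

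Cells without testicular androgen had less Scap and Scd1 RNA and more Fads2, Me1 and Elovl7 RNA, while no gene from squalene onward was called. In limma with Benjamini-Hochberg adjustment over all genes, 6 of 34 members were called at an adjusted p under 0.05 between castrated and intact arrays, 3 higher and 3 lower. Scd1 and Fads2, set apart for their movement, are among the 6, and over the other 32 members 4 were called, 2 higher and 2 lower. Over all genes tested, 7.88% were called, 4.76% higher and 3.13% lower. The arrays of the groups did not overlap for 14 of 34 members, Scd1 and Fads2 among them, against 28.7% of all genes. At an unadjusted p under 0.05 there were 16 of 34 members, and 14 of the other 32, against 20.5% of all genes. The median difference over the members was -0.34 log2, against 0.04 over all genes.

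After testosterone, Scap and Mvd were called higher than in castrated cells, 2 of the 32 members not set apart, a share of 6.25%. Scd1, higher, and Fads2, lower, also passed the threshold, which makes 4 of 34 members called. Both were set apart for their movement in these data, so their passing adds no support. Over all genes tested, 4.92% were called between regenerated and castrated arrays, 1.94% higher and 2.98% lower. Without regenerated replicate 4, 1073 genes were higher and 1056 lower, against 596 and 917 with it included. Arrays did not overlap for 8 of 34 members, Scd1 and Fads2 among them, against 16.0% of all genes. At an unadjusted p under 0.05 there were 12 of 34, and 10 of the other 32, against 18.8% of all genes. The median difference was 0.29 log2 over the members and -0.02 over all genes. Without regenerated replicate 4 the count was 6, with Mvk and Ebp added. It was 2 without any one of intact replicates 1, 2 and 3, castrated replicate 2 or regenerated replicate 1, and it was 1 without castrated replicate 3 or regenerated replicate 2 or 3. It was also 1, Fads2, when only the 2 groups compared were fitted. Fads2, set apart for its movement, is part of each of these counts. Without castrated replicate 2 the other call was Acacb, lower in regenerated arrays at -0.50 log2 (limma adjusted p = 0.0429). The contrasts of castrated with intact and of regenerated with castrated share the castrated arrays.

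**Figure D1:**
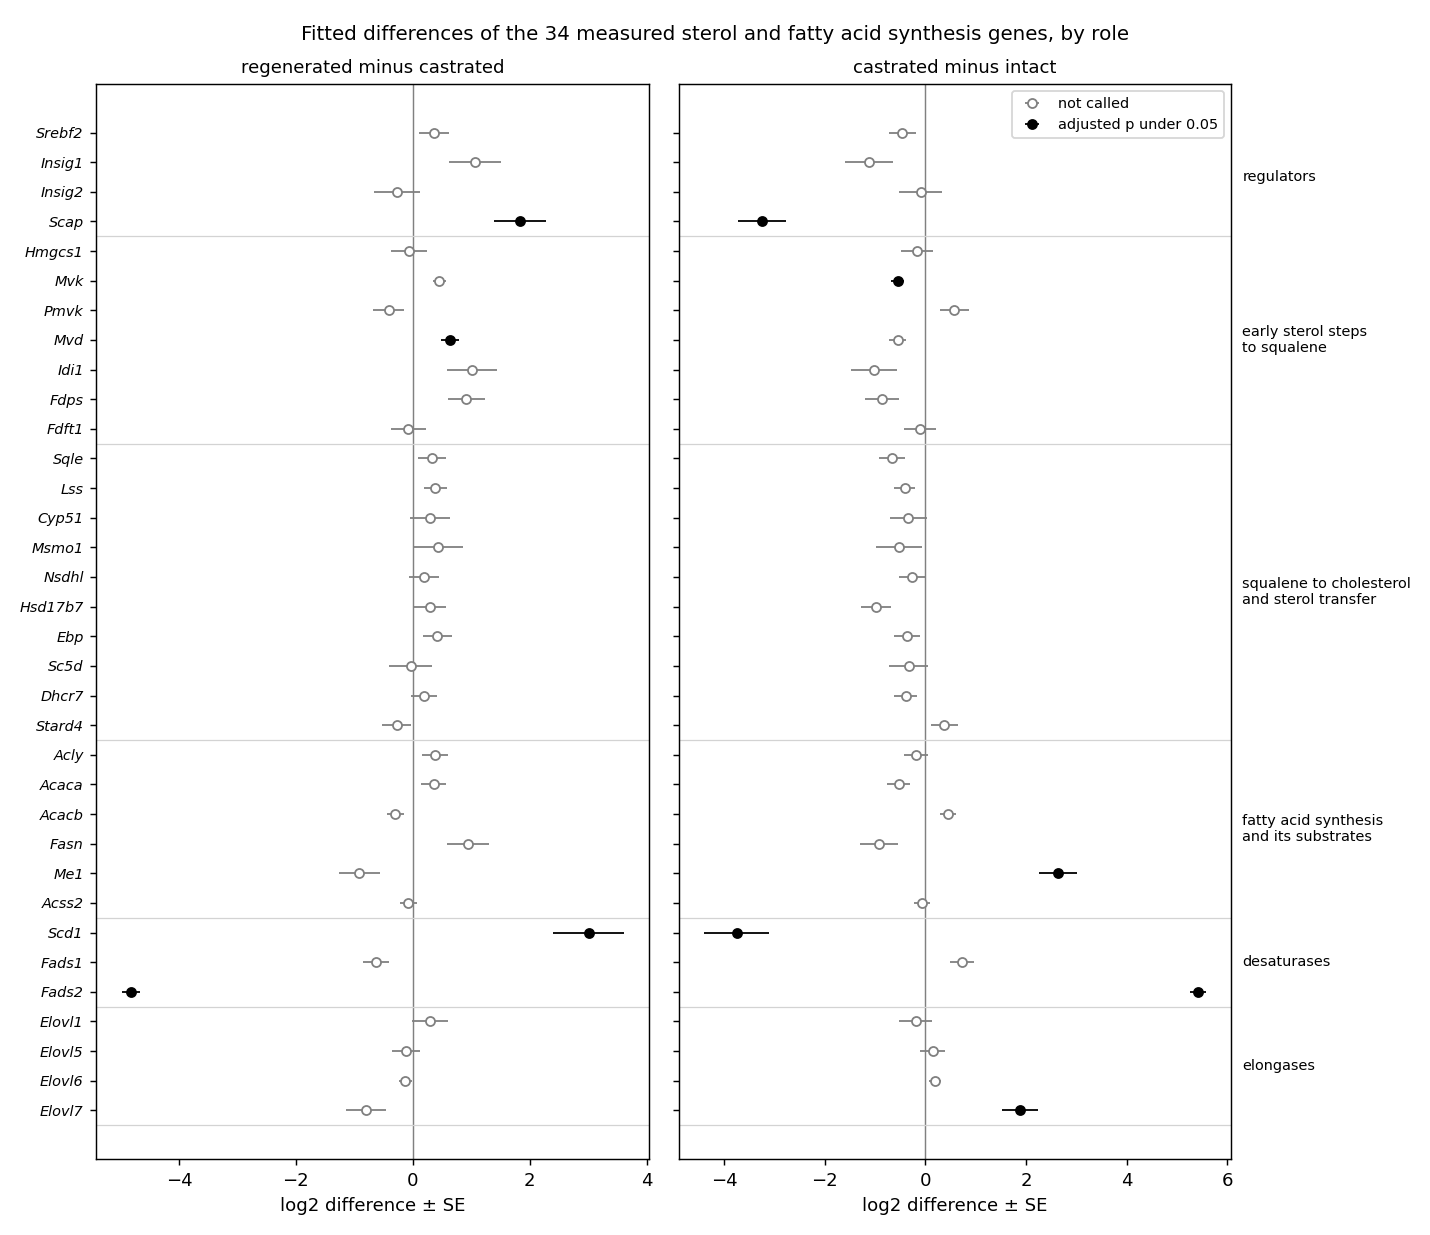
Fitted log2 difference with its standard error for each of the 34 measured members, in rows grouped by role, for regenerated minus castrated arrays (left) and castrated minus intact arrays (right). Filled points have an adjusted p under 0.05. Most open points lie within 1 log2 of 0. Scap, Scd1 and Fads2 stand farthest out in both panels, followed on the right by Me1 and Elovl7.

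Among the regulators, Scap, the escort protein without which SREBPs stay in the endoplasmic reticulum, had the largest difference. It read 10.32, 10.35, 10.38 and 8.56 log2 in regenerated arrays, 8.57, 7.95 and 7.69 in castrated arrays, and 11.69, 11.28 and 10.999 in intact arrays. Every castrated array lay below every intact array, and regenerated replicate 4 lay within the castrated range while the other regenerated arrays lay above it.
Scap fell by 3.25 ± 0.48 log2 (SE) in castrated against intact arrays, a 9.53-fold difference (limma adjusted p = 0.00257). The call held when any single array was left out, with adjusted p values of 0.000111 to 0.0175. Against castrated arrays, Scap was 1.83 ± 0.44 log2 higher in regenerated arrays (limma adjusted p = 0.0428). That call ended in 9 of 10 fits that left out 1 array, where the adjusted p reached 0.137, and it was kept only without regenerated replicate 4, at 2.28 ± 0.27 log2 and an adjusted p of 0.0011.
Regenerated arrays also all lay below the intact ones for Scap, by a mean of -1.42 ± 0.44 log2, which was not called (limma adjusted p = 0.305).

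The protease that Scap delivers SREBPs to moved the same way. Mbtps1, site-1 protease, makes the first cut in SREBPs in the Golgi and is not a member of the set. It was picked out for being called, from a list of 13 measured genes described below. In that list 10 were not called between castrated and intact arrays. Mbtps1 averaged 9.66 ± 0.20 log2 in regenerated (SD, n = 4), 8.41 ± 0.44 in castrated (n = 3) and 9.85 ± 0.27 in intact arrays (n = 3). It fell by 1.43 ± 0.27 log2 in castrated against intact arrays (limma adjusted p = 0.00976) and was 1.25 ± 0.25 higher in regenerated than in castrated arrays (limma adjusted p = 0.0191). The second call ended without castrated replicate 2 (adjusted p = 0.0776), castrated replicate 3 (0.0728) or regenerated replicate 2 (0.0617).

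The other regulators were not called in any contrast. Srebf2, the SREBP that mainly drives cholesterol genes, read 7.63, 8.15, 7.74 and 7.96 log2 in regenerated arrays, 8.07, 7.42 and 7.03 in castrated arrays, and 8.23, 7.85 and 7.82 in intact arrays. The 3 groups overlapped, and the castrated minus intact difference was -0.46 ± 0.27 (limma adjusted p = 0.398). Insig1, an SREBP target that also restrains Scap, averaged 7.63 ± 0.59 in regenerated, 6.57 ± 0.47 in castrated and 7.69 ± 0.95 in intact arrays. Its castrated minus intact difference of -1.13 ± 0.48 was not called (limma adjusted p = 0.21). Insig2, the isoform less dependent on SREBPs, differed by -0.10 ± 0.42 (limma adjusted p = 0.938).

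Of the 7 enzymes that lead from acetoacetyl-CoA to squalene, 6 were lower in mean in castrated than in intact arrays, and only Mvk was called. Over all genes, 12750 of 30735 were lower in mean and 7.88% were called. Mvk, mevalonate kinase, read 6.08, 6.21, 6.22 and 5.99 log2 in regenerated arrays, 5.62, 5.62 and 5.76 in castrated arrays, and 6.25, 6.24 and 6.16 in intact arrays. All castrated arrays lay below all arrays of the other groups. Castrated replicate 3 lay under the highest background control of its array for Mvk, where changes can be compressed. Mvk fell by 0.55 ± 0.12 log2 in castrated against intact arrays, 1.46-fold (limma adjusted p = 0.0233). Without one of intact replicates 1 and 2 or castrated replicates 1 and 2, Mvk missed the threshold, at adjusted p values of 0.0689 to 0.0963. In regenerated against castrated arrays Mvk differed by 0.46 ± 0.12 (limma adjusted p = 0.0523), and the difference was called without regenerated replicate 4 (0.50 log2, adjusted p = 0.0326).

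Mvd, the decarboxylase that makes isopentenyl pyrophosphate, read 5.94, 6.09, 6.09 and 5.66 log2 in regenerated arrays, 5.43, 5.004 and 5.50 in castrated arrays, and 5.94, 5.80 and 5.85 in intact arrays. Its castrated arrays again lay below all others, and castrated replicates 2 and 3 lay under the highest background control of their array. Mvd was 0.63 ± 0.16 log2 higher in regenerated than in castrated arrays (limma adjusted p = 0.0479), a call that ended in 9 of 10 fits with 1 array left out and held without regenerated replicate 4 (0.73 log2, adjusted p = 0.0192). Its castrated minus intact difference was -0.55 ± 0.17 (limma adjusted p = 0.0784), and it was called without regenerated replicate 4 (adjusted p = 0.0445) and with array weights (adjusted p = 0.017). The remaining enzymes of this stretch are Hmgcs1, which makes HMG-CoA, Pmvk, the next kinase after Mvk, Idi1, the isomerase, Fdps, which builds farnesyl pyrophosphate, and Fdft1, squalene synthase. Their castrated minus intact differences ran from -1.02 for Idi1 to 0.58 for Pmvk, and none was called. Hmgcs1 lay under the highest background control in 4 of 10 arrays and Idi1 in 2.

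None of the 10 measured genes from squalene to cholesterol was called by limma in any contrast. At an unadjusted p under 0.05 there were 2 in castrated against intact arrays, beside 20.5% of all genes. There were 0 in regenerated against castrated arrays (18.8% of all genes) and 1 in regenerated against intact arrays (9.97%). The 10 are Sqle, the epoxidase that is a slow step of the pathway, the cyclase Lss, the demethylation enzymes Cyp51, Msmo1, Nsdhl and Hsd17b7, the late enzymes Ebp, Sc5d and Dhcr7, and Stard4, a cytosolic sterol carrier. In castrated against intact arrays 9 of the 10 were lower in mean, beside 12750 of 30735 genes tested. Their median was -0.38 log2, with a range of -0.98 for Hsd17b7 to 0.38 for Stard4. In regenerated against castrated arrays 8 of the 10 were higher in mean, with a median of 0.29, beside 14117 of 30735 genes tested. Hsd17b7 came nearest to a call in castrated against intact arrays (limma adjusted p = 0.0825) at 5.26 ± 0.41 in regenerated, 4.97 ± 0.47 in castrated and 5.95 ± 0.42 log2 in intact arrays, and it was called with array weights (adjusted p = 0.0364). Hsd17b7 lay under the highest background control in 4 of 10 arrays, Lss and Dhcr7 in 3 each, and Cyp51 and Ebp in 1 each. Changes there can be compressed. Ebp was called higher in regenerated than in castrated arrays without regenerated replicate 4 (0.66 log2, adjusted p = 0.0446).

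Within groups, many of the cholesterol genes were high or low in the same arrays. Of the 17 measured genes from Hmgcs1 to Stard4, 12 had their highest regenerated value in replicate 1 and 12 their lowest in replicate 4. Over all genes, 24.5% had their highest regenerated value in replicate 1 and 32.1% their lowest in replicate 4. In castrated arrays, 12 of the 17 were highest in replicate 1, against 29.5% of all genes, and 12 were lowest in replicate 3, against 25.2% of all genes. In intact arrays, 9 of the 17 were highest in replicate 3, against 45.2% of all genes. Idi1, chosen after its values were seen, shows the size of this spread, with 7.11, 5.78, 5.87 and 5.71 log2 in regenerated arrays, 5.69, 4.89 and 4.76 in castrated arrays, and 5.55, 5.82 and 7.03 in intact arrays. Replicate 1 of the regenerated group and replicate 3 of the intact group stood more than 1 log2 above the rest of their groups, and Insig1 and Msmo1 were highest in those same arrays.

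**Figure D2:**
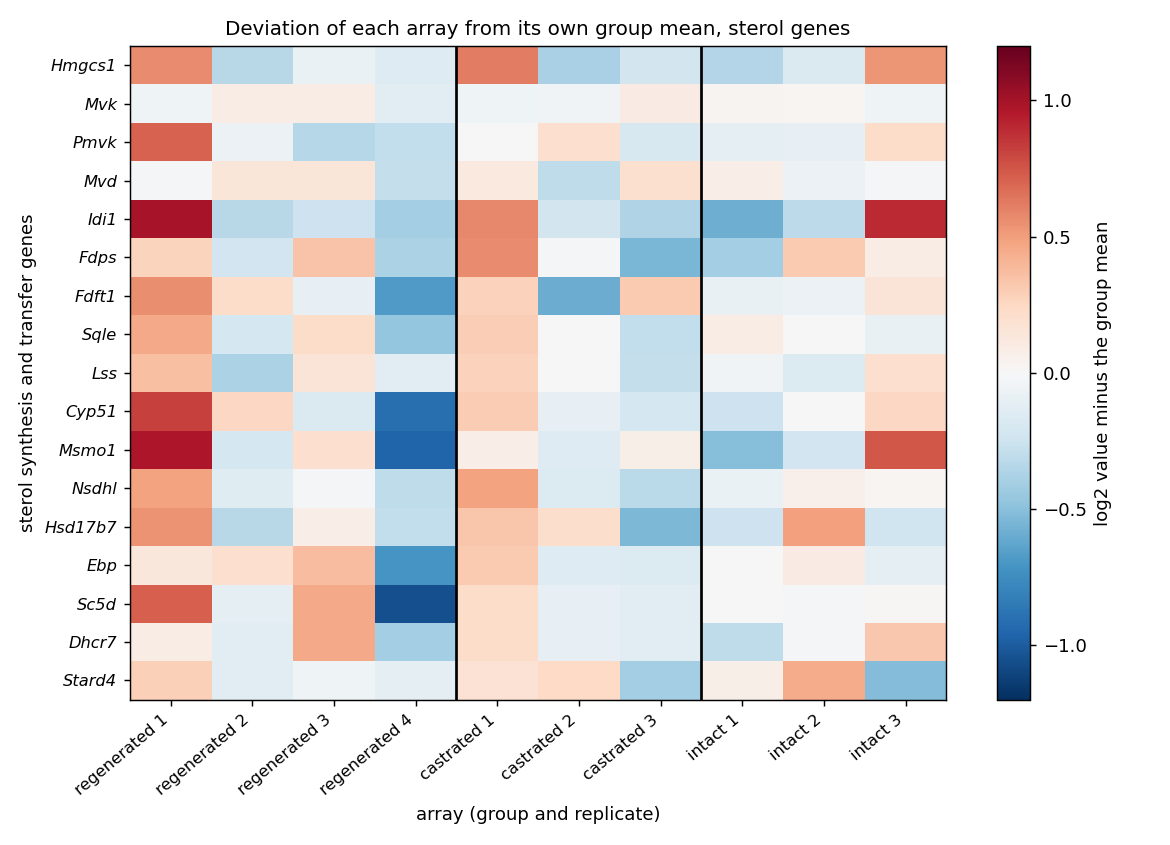
Each cell is the log2 value of a sterol synthesis or transfer gene (rows) in an array (columns, ordered as regenerated, castrated and intact) minus the mean of that array's own group. Regenerated replicate 1 and castrated replicate 1 are mostly red, with 12 of 17 genes highest there, and regenerated replicate 4 is mostly blue, with 12 of 17 lowest.

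In fatty acid synthesis, Me1 rose in castrated cells while the synthase and carboxylases were not called. Me1, cytosolic malic enzyme, makes pyruvate and the NADPH that fatty acid synthase consumes. It read 6.34, 7.73, 7.53 and 7.99 log2 in regenerated arrays, 8.17, 8.08 and 8.68 in castrated arrays, and 5.91, 5.44 and 5.69 in intact arrays. The 3 groups did not overlap, and regenerated arrays lay between the other groups. Me1 was 2.63 ± 0.38 log2 higher in castrated than in intact arrays, 6.19-fold (limma adjusted p = 0.00233), and kept its call whichever array was left out.
Between regenerated and castrated arrays Me1 differed by -0.91 ± 0.35 log2, which was not called (limma adjusted p = 0.19). Its regenerated minus intact difference was 1.72 ± 0.35 (limma adjusted p = 0.203), and without regenerated replicate 1 it was called at 2.07 ± 0.23 (adjusted p = 0.0108).

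Fasn, fatty acid synthase, averaged 10.09 ± 0.26 log2 in regenerated (SD, n = 4), 9.14 ± 0.87 in castrated (n = 3) and 10.06 ± 0.20 in intact arrays (n = 3). The castrated arrays disagreed among themselves, at 10.13, 8.54 and 8.75. The castrated minus intact difference was -0.92 ± 0.38 (limma adjusted p = 0.199), and without castrated replicate 1 it was -1.41 and called (adjusted p = 0.0156). The regenerated minus castrated difference was 0.94 ± 0.36 (limma adjusted p = 0.181), and without castrated replicate 1 it was called as well, at 1.44 (adjusted p = 0.0152). Acly, which makes cytosolic acetyl-CoA from citrate, differed by -0.18 ± 0.24 between castrated and intact arrays (limma adjusted p = 0.755). Acaca, the carboxylase that makes malonyl-CoA for synthesis, differed by -0.53 ± 0.23 (limma adjusted p = 0.219). Acacb, the mitochondrial carboxylase, and Acss2, which makes acetyl-CoA from acetate, lay under the highest background control of the array in all 10 arrays, where changes can be compressed. Acacb differed by 0.46 ± 0.16 between castrated and intact arrays (limma adjusted p = 0.119), and was called without castrated replicate 2 at 0.66 (adjusted p = 0.0117).

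Of 4 elongases, 1 was called between castrated and intact arrays, beside 7.88% of all genes, and none in the other contrasts. Elovl7, which lengthens saturated very long chain fatty acids, read 8.16, 9.56, 9.08 and 9.25 log2 in regenerated arrays, 9.62, 9.68 and 10.14 in castrated arrays, and 7.59, 7.79 and 8.41 in intact arrays. Castrated arrays were highest, and regenerated replicate 1 alone fell within the intact range. Elovl7 was 1.88 ± 0.36 log2 higher in castrated than in intact arrays, 3.68-fold (limma adjusted p = 0.0111), and it missed the threshold when intact replicate 1 was left out (adjusted p = 0.0603). Its regenerated minus castrated difference was -0.80 ± 0.34 (limma adjusted p = 0.235) and its regenerated minus intact difference 1.08 ± 0.34 (limma adjusted p = 0.305). Elovl1, for saturated and monounsaturated very long chains, Elovl5, for polyunsaturated chains, and Elovl6, which takes palmitate to stearate, differed by -0.19, 0.15 and 0.19 log2 between castrated and intact arrays. Elovl6 was under the highest background control in all 10 arrays.

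The desaturases hold the largest differences of the set, and they ran in opposite directions. Scd1 puts the first double bond into stearate and palmitate, at the delta-9 position. It read 13.93, 13.24, 13.61 and 10.87 log2 in regenerated arrays, 10.15, 9.84 and 9.74 in castrated arrays, and 13.96, 13.25 and 13.78 in intact arrays. Castrated arrays lay below all others, and regenerated replicate 4 stood nearer to them than to the rest of its group. The castrated minus intact difference was -3.75 ± 0.65 log2, 13.5-fold, and the regenerated minus castrated difference was 3.00 ± 0.61, or 3.68 ± 0.26 without regenerated replicate 4. Scd1 was no longer among the called members between regenerated and castrated arrays without castrated replicate 2 or 3 or regenerated replicate 2 or 3, at 2.77 to 2.97 log2, or when only the 2 groups compared were fitted. A second row that names Scd1 was dim, at 3.76 to 5.35 in regenerated, 3.36 to 3.80 in castrated and 4.65 to 5.16 in intact arrays, and its castrated arrays were again below the intact ones. In that row every array except intact replicate 3 lay under its highest background control, so it adds little.

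Fads2, the delta-6 desaturase that begins the conversion of linoleic and linolenic acid into longer polyunsaturated fatty acids, moved the other way. It read 5.17, 5.28, 5.07 and 4.89 log2 in regenerated arrays, 10.11, 9.87 and 9.80 in castrated arrays, and 4.56, 4.30 and 4.66 in intact arrays. Castrated arrays stood far above the others, and regenerated replicate 4, near castrated arrays for Scd1 and Scap, was the lowest regenerated array for Fads2. The castrated minus intact difference was 5.42 ± 0.16 log2 and the regenerated minus castrated difference -4.83 ± 0.15. Fads2 lay under the highest background control of the array in 3 of 4 regenerated, 0 of 3 castrated and 3 of 3 intact arrays. Counting each such array at that control where it was brighter, Fads2 was at least 28.5-fold higher in castrated than in intact arrays, and at least 23.8-fold lower in regenerated than in castrated arrays. A second row for Fads2 gave 3.49 to 5.55 in regenerated, 10.24 to 10.83 in castrated and 3.72 to 4.70 in intact arrays.

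Fads1, the delta-5 desaturase that follows Fads2 in the same route, read 3.87, 3.69, 3.67 and 4.30 log2 in regenerated arrays, 5.10, 4.099 and 4.33 in castrated arrays, and 3.75, 3.84 and 3.75 in intact arrays. Castrated arrays were above intact arrays without overlap, and 9 of 10 arrays lay under their highest background control. The castrated minus intact difference of 0.73 ± 0.24 was not called (limma adjusted p = 0.095).

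**Figure D3:**
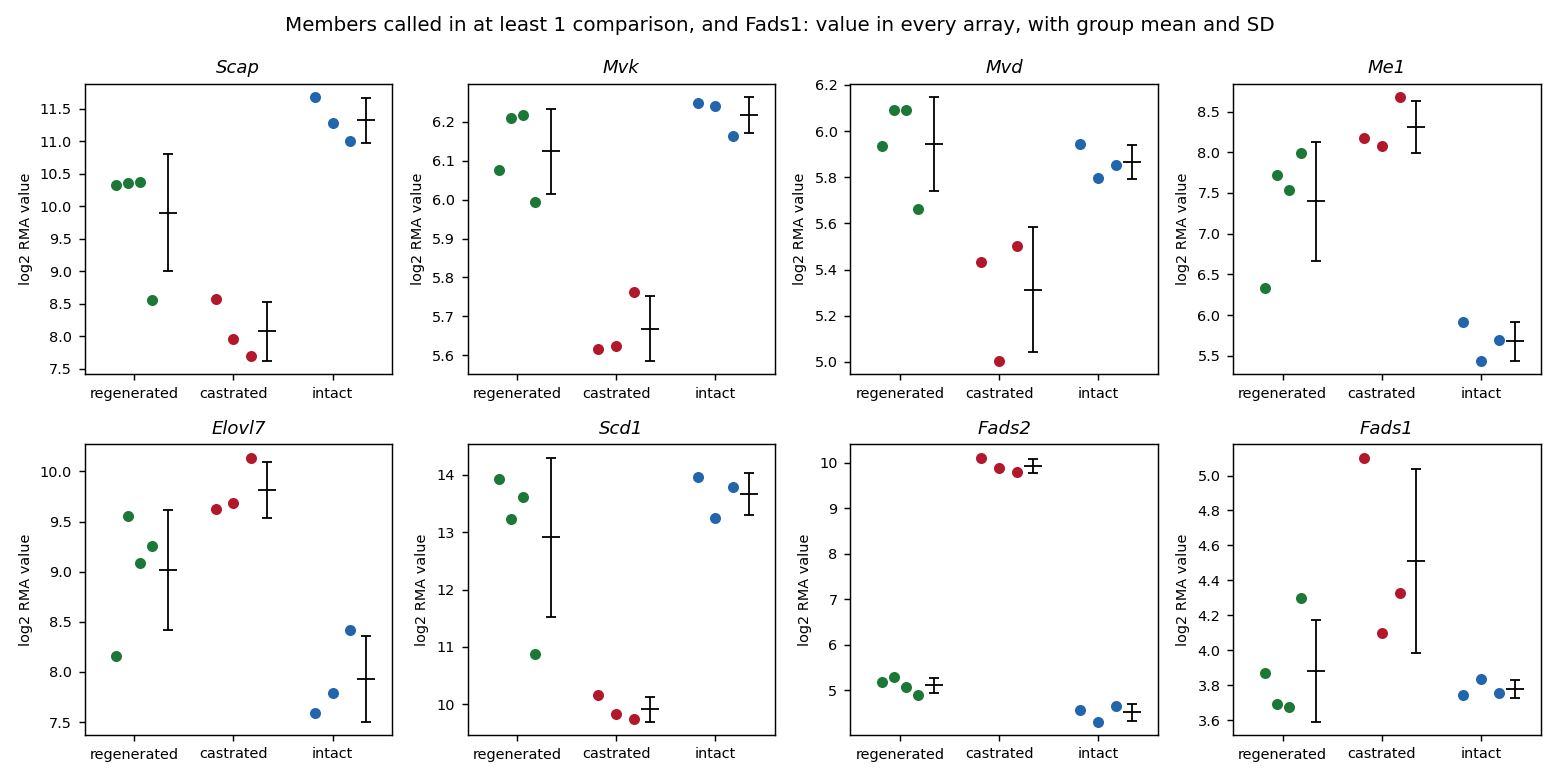
Log2 RMA value in each array (points, left to right in each panel: regenerated, castrated, intact) for the 7 members called in at least 1 contrast and for Fads1, with the group mean and SD as bars. Each panel has its own vertical scale. Regenerated replicate 4, the last green point, lies near the castrated arrays for Scap (8.56) and Scd1 (10.87) and far below them for Fads2 (4.89).

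None of the 34 members was called by limma between regenerated and intact arrays, where 0.0390% of all genes were called, 0.0358% higher and 0.00325% lower. At an unadjusted p under 0.05 there were 5 of 34, against 9.97% of all genes. Over the 32 without Scd1 and Fads2 there were 4. The 5 were Scap, Hsd17b7, Fads2, Elovl7 and Me1, which are named here after their values were seen. Scap and Hsd17b7 were lower in mean in regenerated arrays and the other 3 higher. Arrays did not overlap for 3 of the 34, Fads2 among them, against 9.64% of all genes. Fads2, set apart for its movement, lay under the highest background control in 3 of 4 regenerated and 3 of 3 intact arrays, so its values in these groups give no measured difference. The median difference over the members was -0.03 log2, against 0.01 over all genes.

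Lists of neighbouring lipid genes were read in the same fit. Of 13 measured genes of sterol and lipid regulation and uptake, 1 was higher and 2 lower in castrated than in intact arrays, beside 4.76% higher and 3.13% lower over all genes. The higher one was Lpl, lipoprotein lipase, which frees fatty acids from lipoproteins. Lpl read 4.18, 4.22, 4.27 and 4.39 log2 in regenerated arrays, 6.97, 7.44 and 6.10 in castrated arrays, and 3.94, 4.08 and 4.00 in intact arrays. Lpl lay under the highest background control in 4 of 4 regenerated, 1 of 3 castrated and 3 of 3 intact arrays. On the values as read, it was called higher in castrated than in intact arrays (limma adjusted p = 0.000234). With that control as the floor in intact arrays only, the difference was 3.34-fold. The castrated array under its control was kept as read. The lower ones were Mbtps1 and Lpin1, a phosphatidate phosphatase, at -1.34 ± 0.36 (limma adjusted p = 0.0457), whose call held only when regenerated replicate 1 or 4 was the array left out. Between regenerated and castrated arrays, 1 was higher (Mbtps1) and 2 were lower, beside 1.94% and 2.98% over all genes. These were Lpl (limma adjusted p = 0.000356 on the values as read) and Mylip, a ubiquitin ligase for lipoprotein receptors, at -1.66 ± 0.39 (limma adjusted p = 0.0392). With the control as the floor in regenerated arrays only, Lpl was 3.03-fold lower there than in castrated arrays. The Mylip call ended without intact replicate 1, castrated replicate 1 or 2, or regenerated replicate 1, 2 or 3.

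The list of fatty acid activation and glycerolipid genes held 1 higher and 3 lower of 19 measured in castrated against intact arrays, beside 4.76% and 3.13% over all genes. Idh1, cytosolic isocitrate dehydrogenase, which makes NADPH as Me1 does, read 10.08, 10.53, 10.49 and 11.22 log2 in regenerated arrays, 13.70, 12.86 and 14.02 in castrated arrays, and 9.58, 9.51 and 10.40 in intact arrays. It was 3.70 ± 0.39 log2 higher in castrated than in intact arrays (limma adjusted p = 0.000474) and differed by -2.95 ± 0.37 between regenerated and castrated arrays (limma adjusted p = 0.00151). Pgd, which makes NADPH in the pentose phosphate pathway, fell in castrated arrays, by 1.26 ± 0.27 (limma adjusted p = 0.0185). Pgd was no longer called when intact replicate 1 or 2 or castrated replicate 2 was dropped, at adjusted p values of 0.0638 to 0.0839.
Agpat1, an acyltransferase of phosphatidic acid synthesis, fell by 1.46 ± 0.20 (limma adjusted p = 0.0019) and was 1.21 ± 0.19 higher in regenerated than in castrated arrays (limma adjusted p = 0.00494). Agpat3, of the same family, fell by 1.60 ± 0.32 (limma adjusted p = 0.0127), and was not called when castrated replicate 2 or intact replicate 1 was dropped (adjusted p = 0.0515 and 0.0603). In regenerated against castrated arrays 2 of the 19 were higher (1.94% over all genes), Agpat1 and the acyl-CoA synthetase Acsl4 (1.96 ± 0.40, limma adjusted p = 0.0214), and 1 was lower (2.98% over all genes), Idh1. The Acsl4 call ended without castrated replicate 1 (adjusted p = 0.0706), regenerated replicate 2 (0.0587) or regenerated replicate 3 (0.0592).

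Among 14 other elongation and desaturation genes, 3 were higher and 2 lower in castrated than in intact arrays, beside 4.76% and 3.13% over all genes. Scd3, a close relative of Scd1 whose probes may share signal with it, averaged 7.23 ± 0.46 log2 in regenerated (SD, n = 4), 5.999 ± 0.33 in castrated (n = 3) and 7.38 ± 0.15 in intact arrays (n = 3). It fell by 1.38 ± 0.27 in castrated against intact arrays (limma adjusted p = 0.013), a call that ended without castrated replicate 2 (adjusted p = 0.0531). Hacd2, a dehydratase of the elongation cycle, fell by 1.59 ± 0.30 (limma adjusted p = 0.00958).
Degs1 and Degs2, desaturases of ceramide synthesis, rose by 2.05 ± 0.35 and 1.92 ± 0.49 (limma adjusted p = 0.00605 and 0.038). The Degs1 call held in all 10 fits with 1 array left out, and the Degs2 call ended without intact replicate 1 or 2, castrated replicate 1 or 2, or regenerated replicate 2 or 3. Hacd1 was the remaining gene called higher, and not so without intact replicate 1 or castrated replicate 2. Between regenerated and castrated arrays, Scd3 was called higher, at 1.23 ± 0.26 (limma adjusted p = 0.022), and Degs1 lower, at -1.47 ± 0.33 (limma adjusted p = 0.0297). Both ended without castrated replicate 2 or 3 or regenerated replicate 2 or 3, and Degs1 also without castrated replicate 1.

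The other neighbouring lists held 0 to 2 calls in a contrast. Of 9 measured genes of sterol efflux, esterification and oxysterols, Cyp7b1, an oxysterol hydroxylase, was called higher and Cyp46a1, the cholesterol 24-hydroxylase, lower in castrated than in intact arrays, 2 of 9 beside 7.88% over all genes. All 10 values of Cyp7b1 lay under the highest background control of their array, so no size is given, and it was not called when any one intact array was dropped. Cyp46a1 lay under that control in 1 of 4 regenerated, 3 of 3 castrated and 0 of 3 intact arrays. The call used the values as read (limma adjusted p = 0.00405). With the control as the floor in castrated arrays, Cyp46a1 was at least 1.45-fold lower there than in intact arrays. On the values as read it was also called higher in regenerated than in castrated arrays (limma adjusted p = 0.0439). With the same floor that difference was 1.08-fold, with the regenerated array under its control kept as read. The second call, 1 of 9 beside 4.92% over all genes, held only when intact replicate 1 or 3 or regenerated replicate 4 was left out. Of 8 measured isoprenoid genes none was called by limma between castrated and intact arrays, with 2 at an unadjusted p under 0.05, beside 20.5% of all genes. Dhdds, of dolichol synthesis, was the 1 of 8 called higher in regenerated than in castrated arrays, beside 1.94% over all genes (1.13 ± 0.28, limma adjusted p = 0.0453), a call kept only without castrated replicate 1. Without that array Dhdds was also called lower in castrated than in intact arrays, at -1.38 ± 0.26 (adjusted p = 0.016), and it was called there without regenerated replicate 4 (adjusted p = 0.0481). None of 14 fatty acid oxidation genes was called by limma in any of the 3 contrasts. At an unadjusted p under 0.05 there were 4 in castrated against intact arrays, beside 20.5% of all genes. There were 3 in regenerated against castrated arrays (18.8% of all genes) and 2 in regenerated against intact arrays (9.97%). The median of the oxidation list was -0.42 log2 in castrated against intact arrays and 0.24 in regenerated against castrated arrays.

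**Figure D4:**
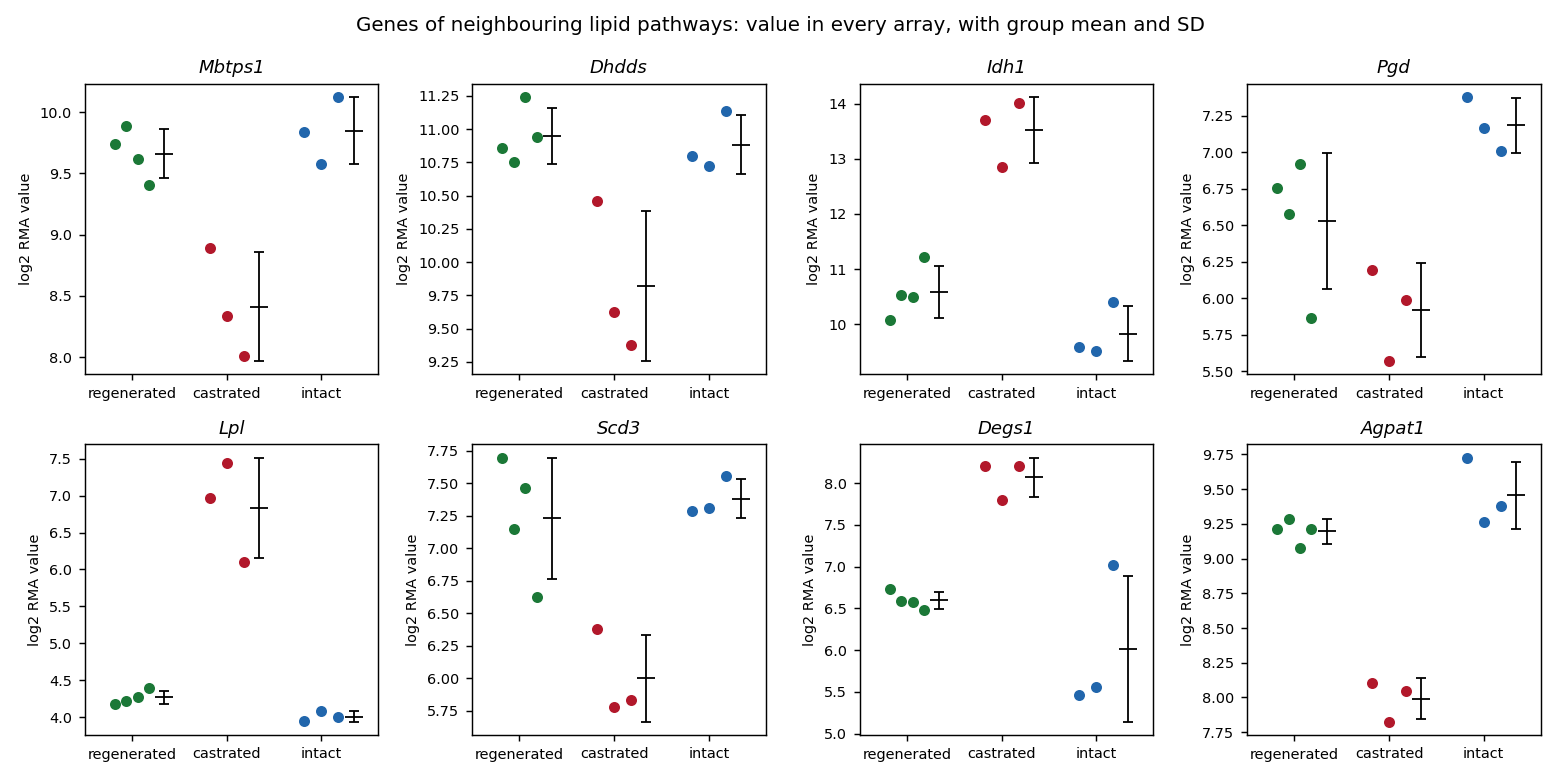
Log2 RMA value in each array (points, with group mean and SD as bars) for 8 genes of neighbouring lipid pathways, in the order regenerated, castrated and intact. Idh1, Lpl and Degs1 are highest in castrated arrays, and Mbtps1, Scd3 and Agpat1 are lowest there.

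Cell type markers and the arrays themselves were checked beside these results. The marker calls below stand beside 4.76% of all genes higher and 3.13% lower in castrated against intact arrays. For regenerated against castrated arrays these shares were 1.94% and 2.98%. Luminal markers themselves moved with the groups. Krt18 read 16.66 to 17.01 log2 in regenerated, 18.21 to 18.65 in castrated and 16.86 to 17.26 in intact arrays. Of 5 luminal markers, 3 were called higher in castrated than in intact arrays (Krt8, Krt18 and the sort marker Cd24a) and 1 lower (Hoxb13). Between regenerated and castrated arrays Krt8 and Krt18 were called lower and Hoxb13 higher. The summed luminal level was 17.5 to 17.9 in regenerated, 18.9 to 19.4 in castrated and 17.57 to 18.03 in intact arrays. Of 6 measured adipocyte markers, none was called by limma in any contrast, with 0 at an unadjusted p under 0.05. Their summed level was 6.40 to 6.80 in regenerated, 6.43 to 6.57 in castrated and 6.48 to 6.53 in intact arrays, with the defining marker Adipoq at 3.32 to 3.80 in all groups, near the background controls. Of 7 leukocyte markers, 1 was called higher in castrated than in intact arrays (Itgam) and 1 lower in regenerated than in castrated arrays (Cd3e). Itgam read 3.86 to 4.42 over all groups, under the highest background control of every array. The summed leukocyte level was 8.43 to 9.57 in regenerated, 9.33 to 12.01 in castrated and 8.34 to 9.97 in intact arrays, with Ptprc at 3.55 to 3.76 throughout. The sum mostly follows Cd3e and Cd68. Cd3e averaged 6.40 in regenerated, 10.45 in castrated and 7.05 in intact arrays. Cd68, not called, averaged 8.43, 8.92 and 8.27 in the same order. Among 6 stromal markers Dcn alone was called, lower in castrated than in intact arrays and higher in regenerated than in castrated arrays. Dcn averaged 11.37 in regenerated, 7.53 in castrated and 12.23 in intact arrays. The 5 stromal markers not called had group means of 3.43 to 4.35, near the background controls. The summed stromal level thus mostly follows Dcn, at 11.003 to 11.92 in regenerated, 7.53 to 9.30 in castrated and 11.44 to 12.78 in intact arrays. Of 5 basal markers, 2 were called higher in castrated than in intact arrays, Krt14 and Krt17, and Krt17 was called lower in regenerated than in castrated arrays. The summed basal level was 11.5 to 14.0 in regenerated, 10.6 to 11.6 in castrated and 9.93 to 10.2 in intact arrays. This sum mostly follows Krt15, which was not called and averaged 12.48 in regenerated, 11.14 in castrated and 9.95 in intact arrays. Krt5, Krt14, Krt17 and Trp63 had group means of 3.97 to 5.71. Of these, Krt5, Krt14 and Krt17 had their highest mean in castrated arrays. None of 3 endothelial and 4 seminal vesicle markers was called by limma. At an unadjusted p under 0.05 there were 0 endothelial markers. Of the 4 seminal vesicle markers there were 3 in castrated against intact and 1 in regenerated against castrated arrays, beside 20.5% and 18.8% of all genes. The summed seminal vesicle level was 6.89 to 15.8 in regenerated, 7.26 to 7.76 in castrated and 10.3 to 15.2 in intact arrays. The part of luminal, leukocyte, stromal, basal and seminal vesicle RNA in the results was not tested, and in bulk RNA fewer cells of a type and less RNA per cell cannot be told apart. On the first principal component of all genes, regenerated replicate 4 lay at 1.99, the other regenerated arrays at -30.9 to -23.8, castrated arrays at 64.6 to 75.9 and intact arrays at -47.6 to -40.3.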

How the data were processed

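RNA from sorted cells was hybridised to Affymetrix ClariomD (MTA-1.0) arrays, 1 per sample. The deposited log2 values were made by the authors with RMA, and Affymetrix Expression Console is named beside it, per the submitters' processing notes. Their versions and the build are not given in the sources used here. Because RMA forces arrays to a common distribution, a shift of all transcripts would be reduced. Arrays have no read depth, and their number limits the precision. Names came from the platform annotation, and 827 symbols were updated by gene identifier against RefSeq (GRCm38.p6). Of 65956 non-control rows 31208 named 1 gene, including 604 (Msmo1 among them) that also carry a former name of the same gene, 1542 named several genes and went unused, and for 33206 no name is listed. The row with the highest mean over the 10 arrays was used for each of 364 genes with several rows, which left 30735 genes. All 10 arrays, in 3 groups, were fitted in R 4.3.3 with limma 3.58.1, whose empirical Bayes step followed the trend of variance with mean (7 residual degrees of freedom). Tests were two-sided, and p-values were adjusted by Benjamini-Hochberg over all genes within a contrast. The scripts were tested on simulated data. The limit for low values was the highest of 23 background control rows in each array, 4.66 to 6.40. Every member is accounted for, values in every array are given for called members, Srebf2 and the desaturases, and from neighbouring lists at most 4 called genes by largest change get values. The members and the lists were chosen with earlier results of these data known. Alternatives are given in the closing section.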

Additional observations from a re-analysis of the deposited data

Results flagged for a closer look

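In the 4 regenerated arrays, the outermost value was tested against the others with Dixon's criterion for each of the 34 members, and 3 members passed it, where chance flags about 1 in 20 groups. Scap read 8.56 log2 in regenerated replicate 4, against 10.32 to 10.38 in the other regenerated arrays. Idi1 read 7.11 in regenerated replicate 1, against 5.71 to 5.87 in the others. Acly read 8.26 in regenerated replicate 2, against 7.66 to 7.75 in the others. Over all members, 19 of 34 had their lowest regenerated value in replicate 4, against 32.1% of all genes. The reason for these values was not tested.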

How the results depend on the processing

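Leaving out each array in turn gave 994 to 3280 called genes and 4 to 7 called members for castrated against intact, 794 to 2129 genes and 1 to 6 members for regenerated against castrated, and 0 to 78 genes and 0 to 1 members for regenerated against intact. The first gene count was 994, 1195 and 1451 without intact replicate 1, intact replicate 2 and castrated replicate 2 in turn. With array weights, 4262 genes were called in castrated against intact arrays and 68 in regenerated against intact arrays. Fitting only the 2 groups compared left 822 genes and 1 member (Fads2) in regenerated against castrated arrays, and 0 genes in regenerated against intact arrays. In the last contrast there were also 2 genes without a mean-variance trend and 28 among genes with a group mean of at least 5 log2. The titles number the replicates and state no pairing. Deviations of same-numbered arrays correlated at -0.15 to 0.27 and those of differently numbered arrays at -0.32 to 0.24. With so few arrays per group these values cannot exclude a pairing. With the replicate block, which leaves out regenerated replicate 4, there were 2712, 1630 and 4 called genes and 6, 4 and 0 called members, with the contrasts in the order above. No called member reversed under any setting run. Over all settings, member calls were lost 6 times and gained 7 times in castrated against intact arrays, and lost 30 times and gained 8 times in regenerated against castrated arrays. Between regenerated and intact arrays 1 was gained, Me1. The causes were not tested. Leaving out rows named by a former symbol, an alternative chosen after seeing the data, gave 6, 4 and 0 called members. Values near the background controls can compress changes.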
